A study of Mus musculus with 4 samples.

Results

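The genes described here are 10 brakes on the kinase complex mTORC1: the sestrins Sesn1, Sesn2 and Sesn3, Ddit4 (REDD1) and its relative Ddit4l (REDD2), Deptor, Tsc1, Tsc2, Depdc5 and Eif4ebp1. They were chosen by name, out of 20145 genes that could be named on the array, as every non-control probe whose accession belongs to 1 of the 10 genes. This gave 13 of 55681 probes, 4 of them for Depdc5 and 1 for each other gene. The brown adipose tissue (BAT) came from male transgenic (Tg) mice of the C57/BL6N strain, 8 weeks old, in which a mouse aP2 (Fabp4) promoter drives Fv2E-PERK. Fv2E-PERK joins the eIF2α kinase domain of PERK to a domain that the ligand AP20187 (AP) dimerizes, so that AP switches on the integrated stress response (ISR). All 4 mice carried the transgene. In the vehicle group, 2 mice received ethanol, PEG-400 and Tween-20 in water, and in the AP group, 2 mice received AP at 1 ng/g per the labels, with BAT taken 12 h later. The aP2 promoter is also active in macrophages, and AP in mice without the transgene was not analysed here, so that an effect of the ligand alone cannot be told apart from one through Fv2E-PERK.

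mTORC1 promotes protein synthesis and restrains autophagy when amino acids, energy and growth factors are plentiful. Separate brakes act at the lysosome, where the complex is switched on: the GATOR1 complex, of which Depdc5 is a subunit, holds the Rag GTPases off when amino acids are scarce, and the TSC complex, built on Tsc1 and Tsc2, holds off the GTPase Rheb. Sestrins relieve GATOR1 of inhibition by GATOR2, Ddit4 and Ddit4l act through the TSC complex, Deptor binds mTOR itself, and the 4E-BP1 protein made from Eif4ebp1 blocks the cap-binding factor eIF4E until mTORC1 phosphorylates it. Sesn2, Ddit4 and Eif4ebp1 are known targets of ATF4, the transcription factor that the ISR induces.

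Cy3-labeled RNA of each mouse was put on a separate SurePrint G3 Mouse array. Values are log2 signals relative to the 75th percentile of the same array, so that 0 is the signal of the probe at that percentile, and a value is compared between mice for the same probe. Where the brightest probe of a list is named, this says nothing of the order of the genes' RNA levels. Between 46.4% and 49.0% of spots were well above background on each array, and 0 spots were saturated. All 10 genes had 1 probe that was well above background in all 4 mice. The other 3 probes of Depdc5, all designed on the transcript NM_177786, did not reach that level in both mice of any group and were not tested. In tissue RNA, fewer cells of a type and less RNA per cell cannot be told apart.

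Of the 10 genes, Sesn2 had the largest difference in mean signal, at 2.09-fold higher with AP, and Deptor was lower by the most, at 0.559-fold. Both AP mice lay above both vehicle mice for Sesn2 and Eif4ebp1 and below them for Deptor and Depdc5. The 2 mice of a group differed widely for Ddit4 (within AP) and for Ddit4l (within vehicle). No gene passed the adjusted threshold: with limma and Benjamini-Hochberg adjustment over all 24970 probes compared, 0 of the 10 genes and 0 probes in all (0%) had an adjusted p under 0.05. The smallest adjusted p of any probe was 0.80, and 1515 probes were under an unadjusted p of 0.05. With 2 mice per group, an exact permutation test (two-sided) on 1 gene has 0.333 as its smallest p, so the values below describe these 4 mice.

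**Figure D1:**
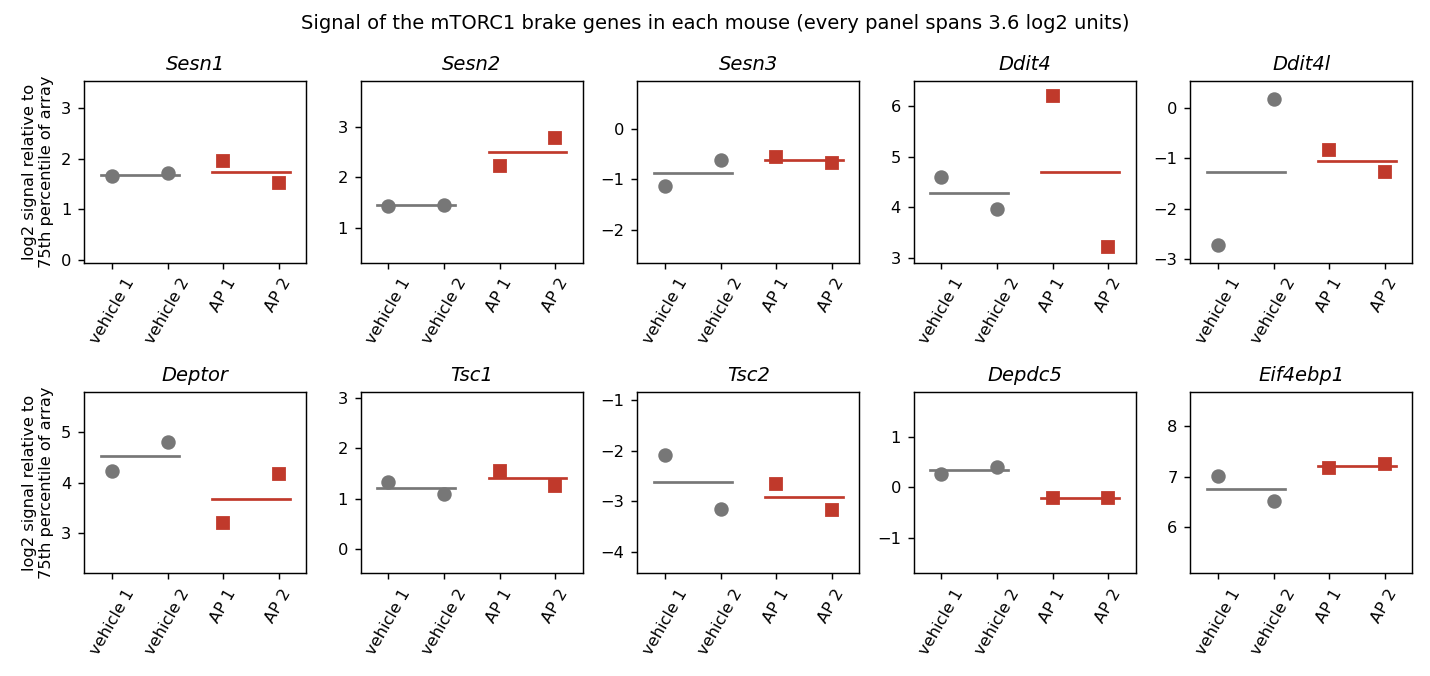
The log2 signal of each gene relative to the 75th percentile of its array (y axis) in each of the 2 vehicle mice (gray circles) and 2 AP mice (red squares), with a line at the mean of each group. Every panel spans the same number of log2 units. Sesn2 lies at 2.23 and 2.79 with AP and at 1.43 and 1.46 with the vehicle, while the AP mice lie at opposite ends for Ddit4.

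Sesn2 encodes a leucine-binding sestrin. Its promoter is shown because Sesn2 is the gene of the 10 whose groups lay farthest apart. The 250 bases before its start come from RefSeq (GRCm38.p6, chr4:132510457-132510706, minus strand) and are printed 5′ to 3′ with the letters of the CCAAT box (CCAAT, or ATTGG on the other strand) in capitals.
Sesn2: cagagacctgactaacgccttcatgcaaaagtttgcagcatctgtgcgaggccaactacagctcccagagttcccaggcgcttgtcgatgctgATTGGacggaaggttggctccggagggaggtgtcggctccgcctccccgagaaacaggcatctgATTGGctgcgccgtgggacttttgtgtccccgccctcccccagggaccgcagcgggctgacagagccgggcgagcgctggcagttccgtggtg
The box was found as ATTGG at 157 to 153 and at 93 to 89 bases before the start. It is in 33.8% of the 32851 promoters of this table. Of the 8 genes matched here, 4 had it, Sesn1, Sesn2, Sesn3 and Ddit4. The 8 genes gave 9 promoters, since Sesn1 was listed at both of its starts. Deptor and Eif4ebp1 had no promoter entry and were not searched. The letters TGATGNAA on either strand, the core of the composite site that C/EBP and ATF proteins bind, were in 3.45% of all promoters and in 0 of the 9 promoters of these genes. This says only that the letters are not in these windows.

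The Sesn2 signal was 1.43 and 1.46 in vehicle mice 1 and 2 and 2.23 and 2.79 in AP mice 1 and 2. The vehicle mice were almost equal, both AP mice were higher, and AP mouse 2 was the higher of the pair. The groups were separated by 0.77 on the log2 scale, against 0.55 between the AP mice. AP against vehicle, the difference was 1.07 on the log2 scale (standard error 0.27, 95% interval 0.35 to 1.78), with an unadjusted limma p of 0.0130, an adjusted p of 0.80 and an exact permutation p of 0.333. By size of its increase, Sesn2 was number 473 of 24970 probes. It was the 1 gene of the 10 with an unadjusted p under 0.05 and a higher mean in AP, where 3.3% of all probes were so. Leaving out any 1 mouse gave log2 fold changes between 0.79 and 1.34, and the unadjusted limma p was then 0.0512 without vehicle mouse 1 and 0.0591 without AP mouse 2. In such a fit the lone mouse of a group is assumed to vary like the mice of the other group, here and below.

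Sesn1, a sestrin long known as a p53 target, was at 1.65 and 1.71 in the vehicle mice and at 1.95 and 1.52 in the AP mice. The AP mice lay on both sides of the vehicle mice, with a mean difference of 0.05 on the log2 scale (standard error 0.24, 95% interval -0.59 to 0.70), which turned to -0.16 without AP mouse 1, to -0.052 with normexp and to -0.11 in the authors' log2 values. Sesn3, a sestrin that FoxO factors induce, was at -1.15 and -0.62 with the vehicle and at -0.57 and -0.69 with AP. Its lowest value was that of vehicle mouse 1, and the other 3 mice were within 0.12 of each other. Its log2 fold change was 0.25 (standard error 0.27, 95% interval -0.46 to 0.96), and -0.013 without vehicle mouse 1 or 0.52 without vehicle mouse 2. The adjusted p was 0.97 for Sesn1 and 0.86 for Sesn3 (limma), and the difference between these changes and that of Sesn2 was not tested.

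The genes whose values over the 4 arrays were most like those of Sesn2 were taken by the root mean square distance between centred log2 signals, among 12137 other named genes that were above background throughout. They were Eprs (distance 0.069), which encodes the glutamyl-prolyl-tRNA synthetase, Gar1 (0.074), Aebp2 (0.079), BC048403 (0.082) and Jdp2 (0.091). Eprs was at 0.91 and 0.97 in the vehicle mice and at 1.72 and 2.44 in the AP mice. With 4 arrays, likeness of this kind is a description only.

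Ddit4 encodes REDD1, a brake that glucocorticoids and hypoxia induce as well as ATF4. Its promoter is shown because the 2 AP mice differed more for this gene than for any other of the 10. The 250 bases come from RefSeq (GRCm38.p6, chr10:59951771-59952020, minus strand), with the CCAAT box and the hypoxia response core (ACGTG, or CACGT on the other strand) in capitals.
Ddit4: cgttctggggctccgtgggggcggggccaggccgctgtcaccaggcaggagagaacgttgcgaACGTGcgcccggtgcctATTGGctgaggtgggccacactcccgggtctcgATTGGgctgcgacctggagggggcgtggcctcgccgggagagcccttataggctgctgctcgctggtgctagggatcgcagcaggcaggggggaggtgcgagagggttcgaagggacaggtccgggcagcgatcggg
The core was found as ACGTG at 187 to 183 bases before the start, and ATTGG at 170 to 166 and at 137 to 133. The core was in 16.6% of all promoters, and Ddit4 was the 1 gene of the 8 matched that had it. The letters GTAAACA on either strand, bound by FoxO factors, were in 3.17% of all promoters and in 0 of the 9 here.

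The Ddit4 signal was 4.60 and 3.95 in vehicle mice 1 and 2 and 6.19 and 3.20 in AP mice 1 and 2. AP mouse 1 had the highest value of the 4 and AP mouse 2 the lowest, so that the groups overlapped completely. The AP mice differed by 2.99 on the log2 scale, a gap that 0.188% of all probes reached, while the vehicle mice differed by 0.65. The means differed by a log2 fold change of 0.42 (standard error 1.03, 95% interval -2.32 to 3.16), with an adjusted p of 0.94 (limma) and an exact permutation p of 1. It was 1.92 without AP mouse 2 and -1.08 without AP mouse 1, so that the direction of this gene was set by which AP mouse was used.

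Glucocorticoid-induced genes had their highest values in AP mouse 1 more often than in another mouse, at 5 of 8 genes, where 23.6% of all probes were highest there. The same count was 5 of 9 for genes that FoxO factors induce and 2 of 9 for hypoxia-induced genes. Fkbp5, a cochaperone of the glucocorticoid receptor, was at 1.01 and 0.64 in the vehicle mice and at 3.11 and 1.01 in the AP mice. Mt2, a metallothionein, was at 5.51 and 6.07 with the vehicle and at 8.45 and 5.71 with AP, and its probe was the brightest of the list. Tsc22d3 (GILZ) was at 3.92, 3.88, 4.91 and 3.54 in the same order of mice. AP mouse 1 was highest for these 3 genes, as for Ddit4, but they were chosen after their values were seen. AP mouse 2 was lowest for Tsc22d3, as for Ddit4, but not for Fkbp5 or Mt2. The summed signal of the list was 6.82 and 6.76 in the vehicle mice and 8.81 and 6.75 in the AP mice on the log2 scale, a sum set largely by the Mt2 probe. The median log2 signal of the list differed less, at 3.40 and 2.60 with the vehicle and 3.85 and 2.83 with AP. In contrast, Dusp1 was lowest in AP mouse 1, at 1.18, and Klf9 was nearly equal in the AP mice, at 3.99 and 4.05. Klf9 was the 1 gene of the 8 with an unadjusted limma p under 0.05 and a higher mean in AP, where 3.3% of all probes were so. The part of glucocorticoid action in the Ddit4 values was not tested.

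Ddit4l, which encodes REDD2 and is known from skeletal muscle, was at -2.71 and 0.17 in vehicle mice 1 and 2 and at -0.84 and -1.27 in AP mice 1 and 2. Both AP mice lay between the vehicle mice. The vehicle mice differed by 2.88, a gap that 0.953% of all probes reached. The mean of the AP mice was higher by 0.21 on the log2 scale (standard error 0.98, 95% interval -2.39 to 2.82), with an adjusted p of 0.97 (limma). It was -1.23 without vehicle mouse 1 and 1.66 without vehicle mouse 2. Skeletal muscle markers had the same order of mice. All 14 of 14 markers measured were lowest in vehicle mouse 1, then AP mouse 2, AP mouse 1 and highest in vehicle mouse 2, the order of Ddit4l, which 3.95% of all probes had. The log2 of their summed signal was 6.72 and 10.3 in the vehicle mice and 9.67 and 8.88 in the AP mice. The brightest probe was that of Tnnc2, a fast muscle troponin. Of the 14, Mylpf was well above background in 3 mice and the others in all 4. The part of muscle RNA in the Ddit4l values was not tested.

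**Figure D2:**
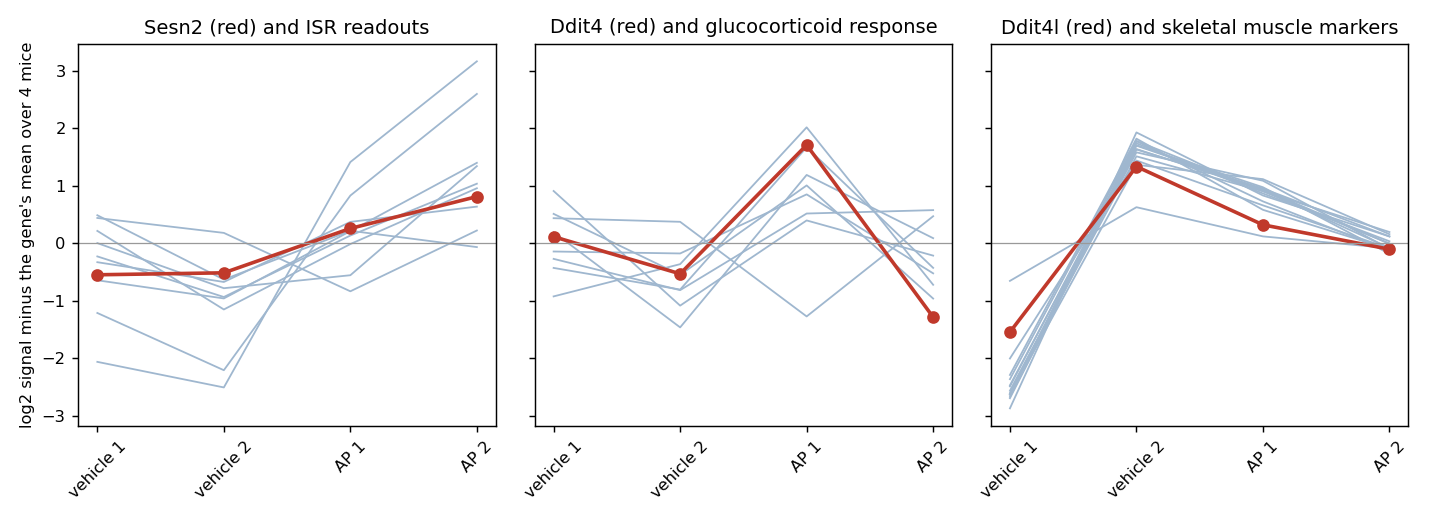
The log2 signal of each gene minus its own mean over the 4 mice (y axis) for each mouse (x axis), with Sesn2, Ddit4 and Ddit4l in red and the measured ISR readouts (9 genes), glucocorticoid-induced genes (8) and skeletal muscle markers (14) in blue. Lines join the values of a gene and imply no order of the mice. Ddit4l and all 14 muscle markers are lowest in vehicle mouse 1 and highest in vehicle mouse 2.

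Deptor encodes an inhibitory subunit of mTOR complexes. Its signal was 4.24 and 4.80 in the vehicle mice and 3.20 and 4.16 in the AP mice. Both AP mice were lower, but AP mouse 2 was only 0.073 below vehicle mouse 1. As a log2 fold change, the difference was -0.84 (standard error 0.42, 95% interval -1.95 to 0.27), with an unadjusted limma p of 0.108 and an adjusted p of 0.80. It was -0.36 without AP mouse 1 and -1.32 without AP mouse 2. The unadjusted limma p was under 0.05 with normexp (0.0475), with a replicate block (0.0381) and without AP mouse 2 (0.0277).

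Depdc5, the GATOR1 subunit that acts on the Rag GTPases, was at 0.26 and 0.40 in the vehicle mice and at -0.22 and -0.21 in the AP mice by the probe for NM_001025426. Both groups were tight, and the AP mice lay 0.47 below the lower vehicle mouse. This gave a log2 fold change of -0.55 (standard error 0.20, 95% interval -1.09 to -0.01), or 0.683-fold, with an unadjusted limma p of 0.0469 and an adjusted p of 0.80. It was the 1 gene of the 10 with an unadjusted p under 0.05 and a lower mean in AP, where 2.77% of all probes were so. This call was lost in several settings, at an unadjusted limma p of 0.0510 with normexp, 0.106 when scaled to the median, 0.0507 with a variance trend and 0.0984 with a replicate block. Leaving out any 1 mouse gave log2 fold changes between -0.62 and -0.48 and an unadjusted limma p between 0.0775 and 0.153. Of the dim Depdc5 probes, 1 was well above background in vehicle mouse 2 alone, at -3.13 there, and the other 2 in no mouse, so that the lower Depdc5 signal rests on 1 probe.

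For Tsc1 and Tsc2, the core subunits of the TSC complex, the groups overlapped. Tsc1 (hamartin) was at 1.33 and 1.08 in the vehicle mice and at 1.55 and 1.26 in the AP mice. Its log2 fold change was 0.20 (standard error 0.23, 95% interval -0.42 to 0.82), and between 0.05 (without AP mouse 1) and 0.34 (without AP mouse 2) with 1 mouse left out, with 0.08 without vehicle mouse 2. Tsc2 (tuberin), the subunit that acts on Rheb, was at -2.08 and -3.15 with the vehicle and at -2.65 and -3.17 with AP. Vehicle mouse 1 was the highest of the 4, and the difference of the means was -0.29 on the log2 scale (standard error 0.44, 95% interval -1.46 to 0.88). It turned to 0.047 with normexp and to 0.24 without vehicle mouse 1, and was -0.83 without vehicle mouse 2. The adjusted p was 0.87 for Tsc1 and 0.90 for Tsc2 (limma).

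Eif4ebp1 was at 7.01 and 6.52 in the vehicle mice and at 7.17 and 7.24 in the AP mice. The AP mice were nearly equal and lay 0.16 above the higher vehicle mouse. This was a log2 fold change of 0.44 (standard error 0.26, 95% interval -0.24 to 1.13), or 1.36-fold, with an unadjusted limma p of 0.152 and an adjusted p of 0.80. Leaving out any 1 mouse gave values between 0.20 and 0.69. Its relatives Eif4ebp2 and Eif4ebp3, the other translation repressors of the family, had log2 fold changes of -0.31 and -0.002, neither under an unadjusted p of 0.05.

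**Figure D3:**
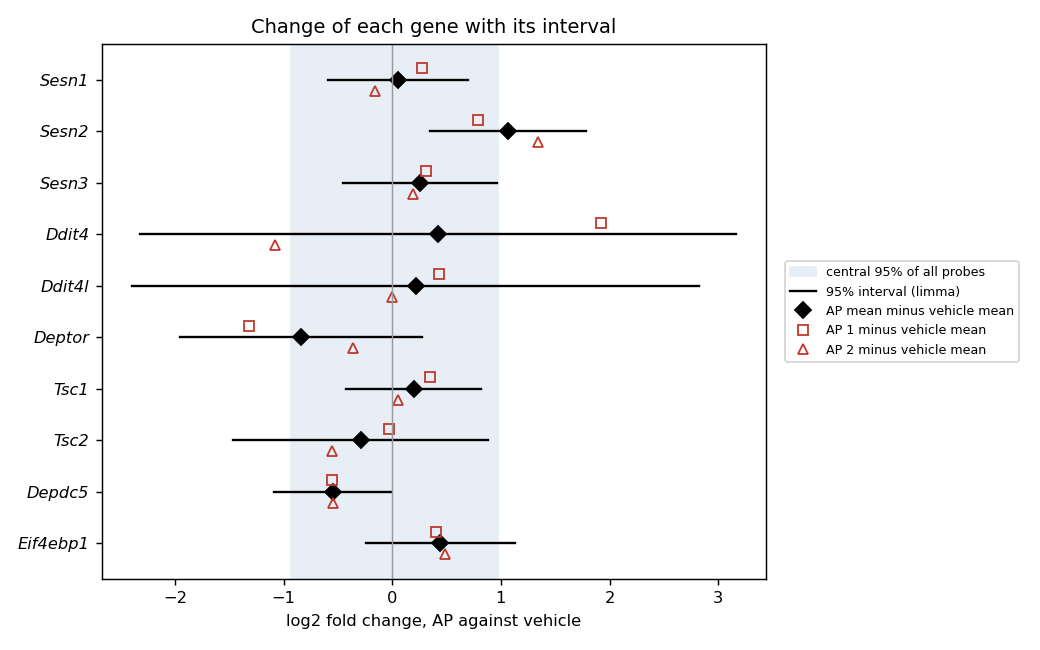
The log2 fold change of AP against vehicle (x axis) of each gene, as the difference of the means (black diamonds) with the 95% interval of limma (lines) and as each AP mouse minus the vehicle mean (open red symbols). The blue band holds the central 95% of all 24970 probes, from -0.93 to 0.97. The intervals of Sesn2 and Depdc5 leave out 0 before adjustment, that of Depdc5 only just (-1.09 to -0.01) and not in every setting, and the AP mice lie on opposite sides of 0 for Ddit4 and Sesn1.

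As a group, 7 of the 10 genes had a higher mean with AP and 3 a lower mean, where 48.6% of all probes had a higher mean. The median log2 fold change was 0.21, against -0.01 over all probes. The AP mice lay above both vehicle mice for 2 of the 10 genes, where 17.9% of all probes did so, and below both for 2 of the 10, where 20.4% did so. Together, 4 of the 10 did not overlap, against 38.3% of all probes, so that separated groups were about as frequent among these genes as on the whole array. Sesn2 was the 1 gene of the 10 with a difference of at least 2-fold, and 2.32% of all probes were at least 2-fold higher.

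**Figure D4:**
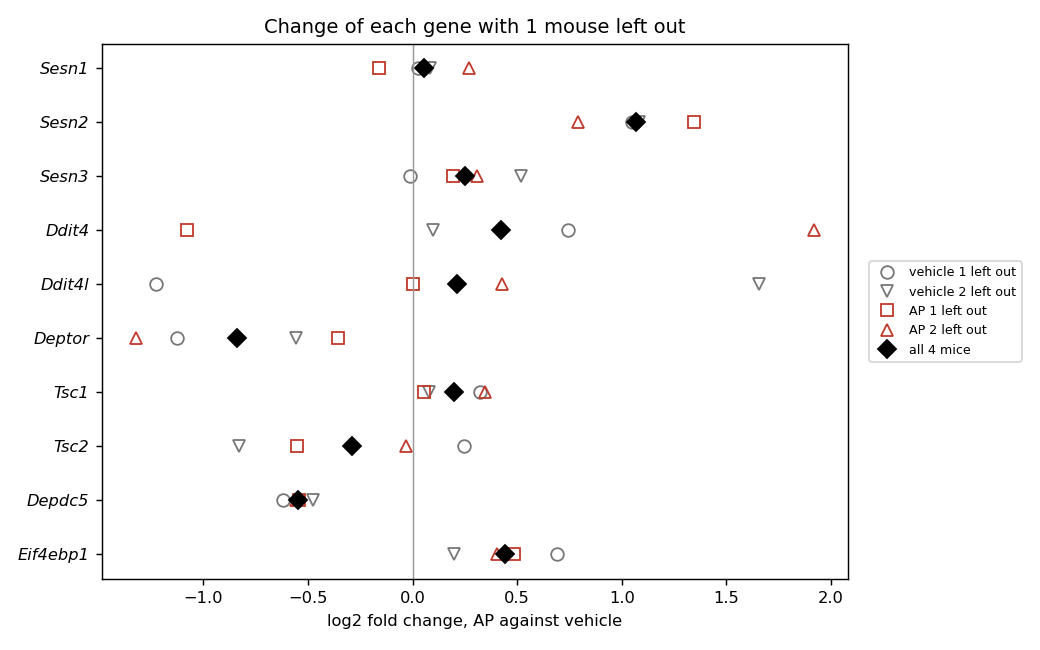
The log2 fold change of AP against vehicle (x axis) of each gene with all 4 mice (black diamonds) and with each mouse left out (open symbols). Sesn2 stays between 0.79 and 1.34 and Depdc5 between -0.62 and -0.48, while Ddit4 runs from -1.08 to 1.92 and Ddit4l from -1.23 to 1.66.

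Genes known to report the ISR were set beside the brakes. The means of 8 of 9 were higher with AP, with a median log2 fold change of 1.01, and 5 of 9 had an unadjusted limma p under 0.05, all with a higher mean in AP, but 0 passed the adjusted threshold. Over all probes, 48.6% had a higher mean and 3.3% had an unadjusted p under 0.05 with a higher mean. Trib3, a pseudokinase that ATF4 and DDIT3 induce, was at 2.78 and 2.33 in the vehicle mice and at 6.26 and 8.01 in the AP mice. Asns, the asparagine synthetase, was at 5.49 and 4.79 with the vehicle and at 5.86 and 6.76 with AP. Ddit3 (CHOP) had a log2 fold change of 1.61, Chac1, a glutathione-degrading enzyme, of 3.42, and Vldlr, a lipoprotein receptor, of 1.01. Atf4 was at 7.49 and 6.12 with the vehicle and at 7.26 and 8.23 with AP, and its groups overlapped. The groups also overlapped for Ppp1r15a (GADD34), which was at 3.12 and 2.34 with the vehicle and at 2.57 and 4.46 with AP, so that its higher mean rested on AP mouse 2. Atf3 was at 0.11 and -0.15 with the vehicle and at -1.17 and -0.11 with AP, so that its lower mean rested on AP mouse 1. Cebpb had a log2 fold change of 0.15. For 8 of the 9 readouts AP mouse 2 was above AP mouse 1, as it was for Sesn2, while this held for 51.3% of all probes and for 4 of the 10 brakes. The same order of the AP mice was found in other lists, at 12 of 12 brown adipocyte markers, 7 of 8 p53 targets and 9 of 12 genes of the GATOR and sensor list.

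Of 64 other genes of the mTOR pathway, listed in 6 groups, 62 could be compared, and 31 had a higher and 31 a lower mean with AP, with a median log2 fold change of 0.03. By limma, 0 passed the adjusted threshold, 1 had an unadjusted p under 0.05 with a higher mean and 1 with a lower mean. Of the 62, 0 reached 2-fold, while 2.32% of all probes did so upward and 2% downward.

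Over all probes, 3.3% were under an unadjusted p of 0.05 with a higher mean and 2.77% with a lower mean. Castor2, a homolog of the arginine sensor that binds GATOR2, was at 2.75 and 2.91 in the vehicle mice and at 2.03 and 2.04 in the AP mice, a difference of -0.79 on the log2 scale (standard error 0.20, adjusted p = 0.80 by limma). Mios, a GATOR2 subunit, was at -1.08 and -0.97 with the vehicle and at -0.52 and -0.28 with AP, a difference of 0.63 (standard error 0.22, adjusted p = 0.80 by limma). For both genes the groups did not overlap. The largest difference upward among the GATOR, KICSTOR and sensor genes, to which both belong, was that of the arginine sensor Castor1 (0.75), which was at -0.87 in AP mouse 1 and between -2.51 and -2.23 in the other 3 mice. Of 12 genes compared in this list, 7 were higher and 5 lower on average.

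Among the mTOR complex subunits, 2 of 9 were higher and 7 lower on average, from Tti1 (-0.28) to Akt1s1 (0.20), which encodes the inhibitory subunit PRAS40. Mtor itself was at 2.80 and 1.59 in the vehicle mice and at 1.88 and 2.14 in the AP mice. Among the Rag GTPases and the lysosomal proteins that dock them, 5 of 12 were higher and 7 lower, with the lowest change for Flcn (-0.21). Rragb was not well above background in vehicle mouse 2, and Fnip1, which encodes a partner of folliculin, had the highest change (0.57) of those well above background in all 4 mice. Rragd was well above background in 0 mice. Tbc1d7, the third subunit of the TSC complex, had a log2 fold change of -0.58, with both AP mice below both vehicle mice, and Rheb of 0.36. Among the substrates and effectors, 8 of 13 were higher and 5 lower, from Pdcd4 (-0.55), a translation inhibitor, to Eif4b (0.59), an initiation factor. Among AMPK, Akt and related kinases, 7 of 13 were higher and 6 lower on average. None of these genes had an unadjusted p under 0.05 (limma).

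**Figure D5:**
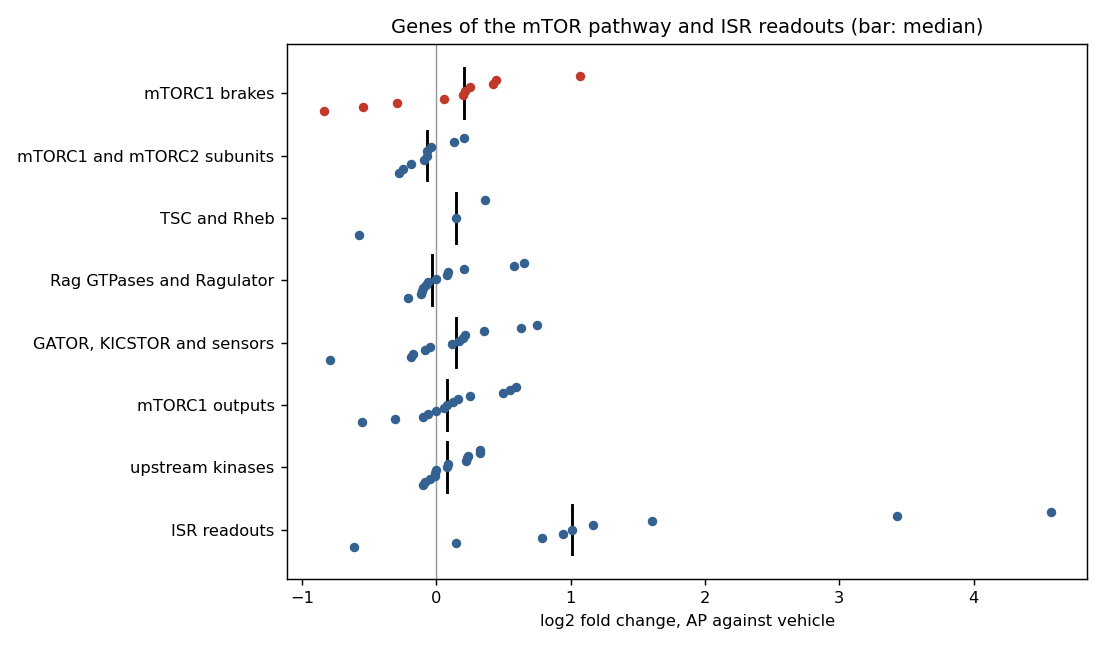
The log2 fold change of AP against vehicle (x axis) of each measured gene of the 10 brakes (red) and of 7 other lists (blue), with a black bar at the median of each list. The ISR readouts have a median of 1.01, and the 62 other pathway genes lie between -0.79 and 0.75, a point near 0.65 (Rragb) resting on a probe not well above background in vehicle mouse 2.

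The tissue was checked against its markers. All 12 brown adipocyte markers were measured, the brightest probe being that of Cidea. The log2 of their summed signal was 13.13 and 12.54 in the vehicle mice and 12.84 and 13.01 in the AP mice. This sum is set by the brightest probes. The markers that differed most between mice were Elovl3 and Dio2. Elovl3 had the same order of mice as the sum, over a wider range, while Dio2 did not follow the sum. Elovl3, a fatty acid elongase, was at 6.08 and -1.07 in the vehicle mice and at 3.52 and 5.76 in the AP mice. Dio2, the deiodinase that activates thyroid hormone, was at 0.49 and 1.53 with the vehicle and at -1.78 and 3.33 with AP. Leukocyte markers were highest in vehicle mouse 2 for 9 of 9 genes measured out of 14 listed, where 23.3% of all probes were highest there. The log2 of their summed signal was 6.95 in vehicle mouse 2, 5.33 in vehicle mouse 1 and 5.60 and 5.49 in the AP mice. Their brightest probe was that of H2-Ab1. The B cell marker Cd79a was well above background in 0 mice. White adipose markers were summed over 5 of 8 genes. The log2 of this sum was 5.58 and 5.78 in vehicle mice 1 and 2 and 5.10 and 5.25 in AP mice 1 and 2. The probe of Retn was the brightest, and Hoxc8, Hoxc9 and Hoxc10 were well above background in 0 mice. Without vehicle mouse 2, the log2 fold change was 1.08 for Sesn2, -0.56 for Deptor, -0.48 for Depdc5 and 0.20 for Eif4ebp1. The vehicle mouse that remained, vehicle mouse 1, was lowest for all 14 skeletal muscle markers. The part of leukocyte or muscle RNA in these values was not tested. The vehicle arrays were in the first column of the slide layout and the AP arrays in other columns, so that position on the slide and treatment cannot be told apart.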

How the data were processed

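BAT RNA of 4 Tg mice, 2 per group, was measured on 1-color Agilent arrays. The authors used Feature Extraction 10.7.1.1 on the scans and deposited the intensity of each spot, background-subtracted and without normalization between arrays, with flags of 0 or 1. The authors also deposited a table of log2 values, centred per probe on an unstated value, while differences between arrays correlated with those of the intensities at a Pearson's r between 0.9978 and 0.9987. Its column medians were -0.284 and -0.160 (vehicle) and -0.438 and -0.293 (AP). Its scaling between arrays is not stated, and it was used as an alternative. The labels give 1 ng/g of AP and the study's legend 0.05 mg/kg.

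Control spots and outlier-flagged spots were left out, and spots of a probe were averaged. From each log2 processed signal, the log2 of the array's 75th percentile (119 and 159 with the vehicle, 128 and 118 with AP) was subtracted. A probe was kept if both mice of a group had it well above background, which left 24970 of 55681. The AP and vehicle groups were fitted by limma 3.58.1 (lmFit, then eBayes; R 4.3.3) without covariates, and p values were adjusted by Benjamini-Hochberg over all probes kept at a threshold of 0.05. The fit was also run on simulated data with independent noise for each probe, drawn from limma's own variance model. Shifts that many genes share in a mouse were not simulated. Probes were named through accessions in a RefSeq table of GRCm38.p6, used for names because the array design is on another build: 26582 probes gave 20145 genes. A gene with several probes was given by its brightest probe on average. Precision is limited by the number of arrays.

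The genes and lists were chosen with earlier results of these data known. Named genes were all 10 brakes, all ISR readouts, of each other list the genes under an unadjusted p of 0.05 or, where there were none, the highest and the lowest change, of each marker list the gene of the brightest probe and those above background in no mouse, and the 5 genes most like Sesn2. Fkbp5, Tsc22d3, Mt2, Dusp1, Mtor, Eif4ebp2, Eif4ebp3, Castor1, Trim63, Mylpf, Agt, Nnat, Elovl3, Dio2 and Fnip1 fall outside this rule and were chosen after their values were seen. Some genes that the rule names are not reported here. The 4 arrays shared 1 slide and 1 scan. Alternatives were normexp (on the median spot signal), quantile normalization, scaling to the median, other filters on dim probes, a variance trend, the authors' log2 values, the methods' t-test, all probes of a gene, a replicate block and leaving out each mouse.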

Additional observations from a re-analysis of the deposited data

How the results depend on the processing

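With all 4 mice, Sesn2, Ddit4, Sesn3, Eif4ebp1 and Tsc1 kept a higher mean with AP, and Deptor and Depdc5 a lower mean, under each alternative run. Sesn1 turned to -0.052 with normexp and to -0.11 in the authors' log2 values, Ddit4l to -0.016 and Tsc2 to 0.047 with normexp. With 1 mouse left out, Sesn2, Eif4ebp1, Tsc1, Deptor and Depdc5 kept their direction. Without vehicle mouse 1, Sesn3 turned to -0.013 (up to 0.52 without another mouse), Ddit4l to -1.23 (up to 1.66) and Tsc2 to 0.24 (down to -0.83). Without AP mouse 1, Sesn1 turned to -0.16 (up to 0.27) and Ddit4 to -1.08 (up to 1.92). The cause was not tested. The number of brakes with a higher mean lay between 5 and 7.

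No probe passed an adjusted p of 0.05 in limma or by the methods' t-test under any alternative, while 1003 to 2610 probes were under an unadjusted p of 0.05. Probes that were also at least 2-fold different numbered 579, and 197 with normexp, 1290 without a filter on dim probes (more probes tested), 384 when all arrays had to pass the background filter (fewer probes tested) and 144 by the methods' t-test. With 1 mouse left out they numbered 760 (without AP mouse 1) to 1449 (without vehicle mouse 1), with 952 without vehicle mouse 2 and 1348 without AP mouse 2. Of these probes 56% were higher with AP, against 68.3% when scaled to the median and 27.1% in the authors' log2 values, where the median change of all probes was -0.17 in place of -0.01.

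Deviations of mice with the same replicate number correlated at -0.13, and nothing says that the numbers pair the mice. With a replicate block 694 probes were under an unadjusted p of 0.05 and 2-fold different and 0 passed the adjusted threshold. With the numbers crossed, an alternative chosen after seeing the data, these were 702 and 0. A block for slide or scan was not run, since all arrays shared 1 of each.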

Other observations

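Genes that respond to other known inducers of these brakes were measured in the same mice. Over all probes, 48.6% had a higher mean with AP and 3.3% had an unadjusted p under 0.05 with a higher mean. Of 9 genes that FoxO factors induce, 8 had a higher mean with AP, with a median log2 fold change of 0.94, and 3 had an unadjusted limma p under 0.05: Klf15 (3.70-fold), a regulator of amino acid catabolism, the muscle ubiquitin ligase Fbxo32 (2.48-fold) and the insulin receptor substrate Irs2 (2.14-fold). Of 8 p53 targets measured out of 9 listed, 4 were higher and 4 lower, with a median of 0.10. The cell cycle inhibitor Cdkn1a (log2 fold change 1.59) and Trp53inp1 (1.25), an autophagy protein, had an unadjusted p under 0.05. Of 9 hypoxia-induced genes measured out of 10 listed, 7 were higher and 2 lower, with a median of 0.34, and the mitophagy receptor Bnip3 (1.26) had an unadjusted p under 0.05. By limma with adjustment over all probes, 0 of these genes passed the threshold. Of the FoxO list, 8 of 9 genes were lowest in vehicle mouse 1, where 16.9% of all probes and all 14 skeletal muscle markers were lowest. The muscle ubiquitin ligase Trim63 was not well above background in vehicle mouse 1 and was at -0.70 in vehicle mouse 2 and at 0.73 and -1.48 in the AP mice. The part of muscle RNA in the FoxO list was not tested.

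Among white adipose markers, Lep, which encodes leptin, had a log2 fold change of -1.38 with an unadjusted limma p under 0.05 and did not pass the adjusted threshold. It was at 0.04 and 1.45 in the vehicle mice and at -0.63 and -0.63 in the AP mice, so that both vehicle mice were above both AP mice and vehicle mouse 2 was the highest. The leukocyte and muscle markers were also highest in vehicle mouse 2, and their part in the Lep values was not tested. Of the 5 white adipose markers measured, 2 were higher and 3 lower on average. Agt was not well above background in vehicle mouse 2 and lay between -2.96 and -2.90 in the other mice, and Nnat was at 3.23 in vehicle mouse 2 and between -0.41 and 0.19 in the other mice.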
